A study of Mus musculus with 12 samples.

Results

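The MHC class II genes described here are 7 of the 47263 genes in the table, chosen by name: the class II chains H2-Aa, H2-Ab1 and H2-Eb1, the invariant chain Cd74, the loading factors H2-DMa and H2-DMb1, and their regulator Ciita. All 7 were measured in 12 libraries of whole mouse liver, and all 7 passed the filter on low values used for testing (10 normalized reads or more in 3 libraries or more, met by 13871 genes). H2-Aa, H2-Ab1, H2-Eb1 and Cd74 were the abundant members, H2-DMa and H2-DMb1 lay well below them, and Ciita had at most 18 reads in any library. The label was borne out for all members but Ciita, whose values were too low to describe beyond their range.

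The series asked what Sirt2, an NAD-dependent deacetylase, does in liver cancer driven by injected oncogenes. There were 4 groups of 3 libraries: wild-type livers given a GFP plasmid (WT GFP), livers with Sirt2 deleted in hepatocytes given the GFP plasmid (KO GFP), wild-type livers given MET and an N-terminally truncated beta-catenin (WT MET/CAT), and Sirt2-deleted livers given both oncogenes (KO MET/CAT). The plasmids pT3-EF1a-c-MET and pT3-EF1a-DN90-β-Catenin were delivered with the Sleeping Beauty transposase plasmid HSB2 by fast tail vein injection at 6 to 8 weeks of age, and livers were collected 8 weeks later. All 4 groups are thus livers of injected mice, and none was left without injection. The Cre line, the mouse strain and what the GFP injection held besides GFP are not given in the sources used. The grouping is that of the sample titles. The treatment entry of the labels names MET/CAT for the KO GFP libraries and GFP for the WT MET/CAT libraries, against those titles, so that by those entries both KO groups would be MET/CAT and both WT groups GFP. Every comparison here, between genotypes as between plasmids, therefore depends on the titles being right. Since no label states that replicates were separate mice, p-values here measure library-to-library spread.

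MHC class II molecules present peptides from engulfed material to CD4+ T cells. An alpha and a beta chain pair in the endoplasmic reticulum together with the invariant chain, which blocks the peptide groove and guides the complex to endosomes, where proteases trim it and the H2-DM heterodimer exchanges the last fragment for a peptide. Transcription needs the coactivator Ciita, which has no DNA-binding domain of its own and is recruited by factors bound to the X and Y boxes upstream of class II genes. In liver, class II is known chiefly from Kupffer cells, dendritic cells, B cells and, at lower levels, sinusoidal endothelium, while resting hepatocytes carry little. The deletion is in hepatocytes and the RNA is from whole liver, so a lower value can mean fewer cells of a type or less RNA per cell, which cannot be told apart here.

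The DNA upstream of H2-Aa, H2-Eb1 and H2-DMb1 holds core letters of the X and Y boxes. Stretches that hold them are printed here for H2-Aa and H2-Eb1, and their part in the members' values was not tested. RefSeq promoters of build GRCm38.p6 (250 bases before to 50 after each start site) were present for 4 of the 7 members, and H2-Ab1, Cd74 and Ciita had no entry. Both strands were searched for the X core CTNGNAAC and the Y core TGATTGG, which do not overlap each other, and for an X core followed by a Y core within 30 bases. The letters were set with these promoters in view. Capitals mark the X core and then the Y core, read 5′ to 3′ on the gene's strand, from chr17:34287837-34287937 (minus strand) for H2-Aa, from chr17:34305743-34305842 (plus strand) for H2-Eb1 and from chr17:34238785-34238882 (plus strand) for H2-Ob, a class II gene that is no member and is shown for comparison:
H2-Aa: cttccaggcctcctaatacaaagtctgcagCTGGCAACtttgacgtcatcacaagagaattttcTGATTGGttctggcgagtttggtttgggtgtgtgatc
H2-Eb1: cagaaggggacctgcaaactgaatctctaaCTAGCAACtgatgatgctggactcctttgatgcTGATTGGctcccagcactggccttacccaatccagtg
H2-Ob: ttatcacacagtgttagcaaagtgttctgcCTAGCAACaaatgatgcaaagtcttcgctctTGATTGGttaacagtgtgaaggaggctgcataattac

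H2-DMb1 held the same pair, in a stretch that overlaps an exon in GENCODE M21 and is therefore not printed. Between the cores lay 26 bases in H2-Aa, 25 in H2-Eb1, 26 in H2-DMb1 and 23 in H2-Ob. The search took only pairs with the X core first and a gap within its limit. Order and closeness were thus set by the search and are not findings. The X core began 84 bases before the start site in H2-Aa, 94 in H2-Eb1, 97 in H2-DMb1 and 90 in H2-Ob. The pair occurred in 28 of 32851 promoters of the same length (0.0852%), which belong to 26 genes, among them Rfx5, which encodes a subunit of the X-box binding complex. Because the letters were set with the members' promoters in view, this share is no test of the pair in them. The X core alone was in 13.2% and the Y core alone in 7.82% of promoters. Neither of the 2 start sites listed for H2-DMa had these letters, which says nothing of the factors that bind there.

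**Figure D1:**
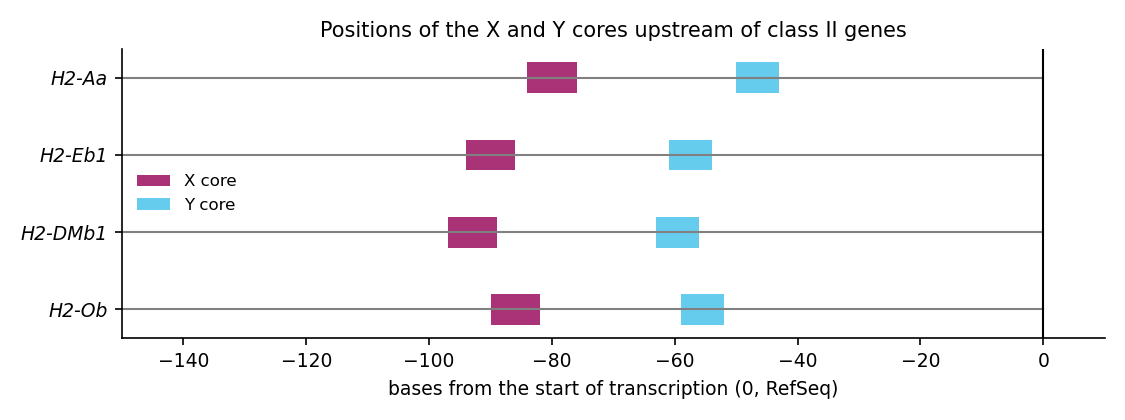
Position of the X core (purple) and the Y core (blue) in bases before the RefSeq start of transcription (0, vertical line) for H2-Aa, H2-Eb1, H2-DMb1 and, for comparison, H2-Ob. In the 4 genes 23 to 26 bases lie between the cores. The search itself required the X core upstream of the Y core at a limited distance.

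The 12 libraries held 18208879 to 24352961 reads, and a read was worth 0.753 to 1.2 normalized reads. Sirt2 was lower in every KO library (126 to 248 normalized reads) than in every WT library (726 to 1068), as the genotype labels require. KO GFP replicate 3 stood apart on the first principal component of all genes (−88.95, against −33.2 to 52.8 in the others) and had the steepest relation of expression to transcript length (rho 0.491 by Spearman's method over genes, against −0.375 to 0.205; genes are not replicates). It was also the library with the lowest value of every member except Ciita, so the members' differences between KO GFP and the WT GFP or KO MET/CAT group are given with and without it.

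Levels differed widely between the members. On the scale of normalized reads per kb of principal transcript, Cd74 was the most abundant member, with a mean of 1035 ± 95.1 in WT GFP livers (SD, n = 3 for this and the following means). H2-Ab1 followed with 660.2 ± 95.6, H2-Aa with 468 ± 76.7 and H2-Eb1 with 328 ± 41.0. The loading factors H2-DMa (63.5 ± 9.0) and H2-DMb1 (52.1 ± 17.5) did not differ from each other beyond their spread, and Ciita had 0.994 ± 0.741. Cd74 made up 34.6% to 41.1% of the summed level of the 7 genes per kb in the 12 libraries.

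The proportions between the abundant members varied less than their levels. Within a library, the per-kb ratio of H2-Aa, the alpha chain of I-A, to its partner H2-Ab1 was 0.555 to 0.904 over the 12 libraries (median 0.750), and so below 1 in each. Cd74 to H2-Ab1 was 1.22 to 1.78 (median 1.58). H2-Eb1, the beta chain of I-E, was at 0.300 to 0.671 of H2-Ab1, with the lowest ratio in KO GFP replicate 3, and at 0.455 to 1.01 of H2-Aa, so that H2-Aa and H2-Eb1 were not in the same order in all 12 libraries. The H2-DMa to H2-Ab1 ratio had a wider range, 0.0538 to 0.150. By contrast, H2-Aa itself varied 5.07-fold between its lowest and highest library, H2-Ab1 4.59-fold, Cd74 5.98-fold, H2-DMa 6.85-fold and H2-Eb1 8.43-fold (normalized reads).

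**Figure D2:**
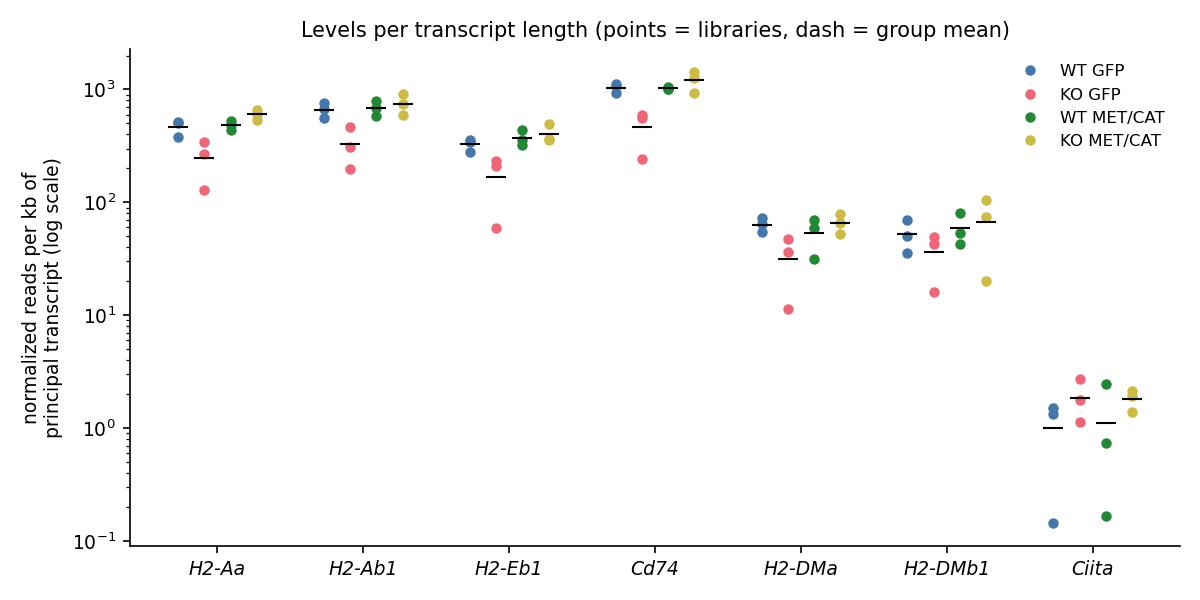
Normalized reads per kb of principal transcript (log axis) of the 7 genes, with a point for each library, coloured by group, and a dash at each group mean. Cd74 is highest, with group means of 464 to 1208, H2-DMa and H2-DMb1 sit near each other, and Ciita is lowest.

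The other class II genes examined had few reads in these livers. H2-Ea-ps, the alpha chain partner of H2-Eb1, which the annotation lists as a pseudogene, had 0 reads in the 12 libraries together, a count that allows up to 3. H2-Eb2 had 22 reads in all and H2-Oa 64, of which 24 were in the WT GFP and 2 in the KO GFP libraries. Neither passed the filter. H2-Ob, which pairs with H2-Oa to restrain H2-DM, had 3.62 to 27.4 normalized reads. H2-DMb2, a near-identical neighbour of H2-DMb1, had 5.98 to 49.4, and reads of the 2 copies may have been divided between them or discarded, so that the values of H2-DMb1 are uncertain.

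KO and WT livers given GFP compare the genotypes without the oncogenes. The chains, the invariant chain and H2-DMa had values 2.02 to 2.40 times lower in KO GFP livers, with no overlap between the groups, but no member passed the test. Without KO GFP replicate 3, the lowest library, the same 5 genes were 1.48 to 1.79 times lower. H2-Aa (chromosome 17, 34282744 to 34287823, minus strand, GRCm38) had 428, 580.2 and 575 normalized reads with Sirt2 present (WT GFP) and 385, 305 and 146 with it deleted (KO GFP). H2-Ab1 (chromosome 17, 34257689 to 34269419, plus strand) had 680.1, 809 and 911 against 569, 378 and 239. Every KO GFP library was below every WT GFP library for both chains, and replicate 3 was the lowest of the 3. H2-Eb1 (chromosome 17, 34305867 to 34316674, plus strand) had 471, 572 and 601 against 385, 349.6 and 98.5, again without overlap.

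Cd74, on chromosome 18, gave the smallest p of the members. Its normalized reads were 1308, 1565 and 1505 for WT GFP and 842, 783 and 338 for KO GFP. Its log2 difference was −1.26 (SE 0.29, limma adjusted p = 0.218). Those of the chains were −1.02 for H2-Aa (SE 0.29, adjusted p = 0.272), −1.09 for H2-Ab1 (SE 0.28, adjusted p = 0.272) and −1.20 for H2-Eb1 (SE 0.39, adjusted p = 0.287). Leaving out KO GFP replicate 3 gave −0.84 for Cd74, −0.61 for H2-Aa, −0.77 for H2-Ab1 and −0.57 for H2-Eb1. The value of H2-Eb1 thus rested most on that library among these 4 genes.

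Of the loading factors, only H2-DMa was separated between the groups. H2-DMa (chromosome 17, 34119541 to 34139101, plus strand) had 89.8, 107 and 119.5 normalized reads with Sirt2 and 60.2, 77.8 and 19.0 without it (−1.20, SE 0.46, adjusted p = 0.29). Its exons share 10.4% of their bases with Brd2, on the other strand and far more abundant (18452 reads in all), and with the strand setting not given its reads may include some of Brd2. H2-DMb1 (chromosome 17, 34153072 to 34160230, plus strand) overlapped, with 70.8, 49.9 and 98.7 against 69.3, 60.5 and 22.6 (−0.61, SE 0.57, adjusted p = 0.595). The differences without KO GFP replicate 3 were −0.60 for H2-DMa and −0.12 for H2-DMb1.

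Ciita (chromosome 16, 10480059 to 10528418, plus strand) went the other way in value. Its counts were 8, 8 and 1 reads for WT GFP and 9, 11 and 18 reads for KO GFP, the highest count being in replicate 3, where the other members were lowest. The groups overlapped (1.07, SE 0.85, 95% interval −0.75 to 2.89, adjusted p = 0.527), and the difference was 0.78 without replicate 3. Of its exon bases, 3.45% overlap Dexi on the other strand, which had 6681 reads.

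In this comparison limma called 0 of the 7 members, against 0.00721% of all tested genes (1 gene, the same share as by edgeR). edgeR called 0 members, and DESeq2 called 1, Cd74 (adjusted p = 0.0256), against 1.03% of genes. At an unadjusted p under 0.05 there were 5 of 7, against 15.5% of genes. The same 5 were lower without overlap, against 13.0% of genes. The median difference of the members was −1.09, against −0.07 over all genes tested. Without KO GFP replicate 3 the median was −0.60, and with each library's trend with transcript length removed it was −0.77.

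**Figure D3:**
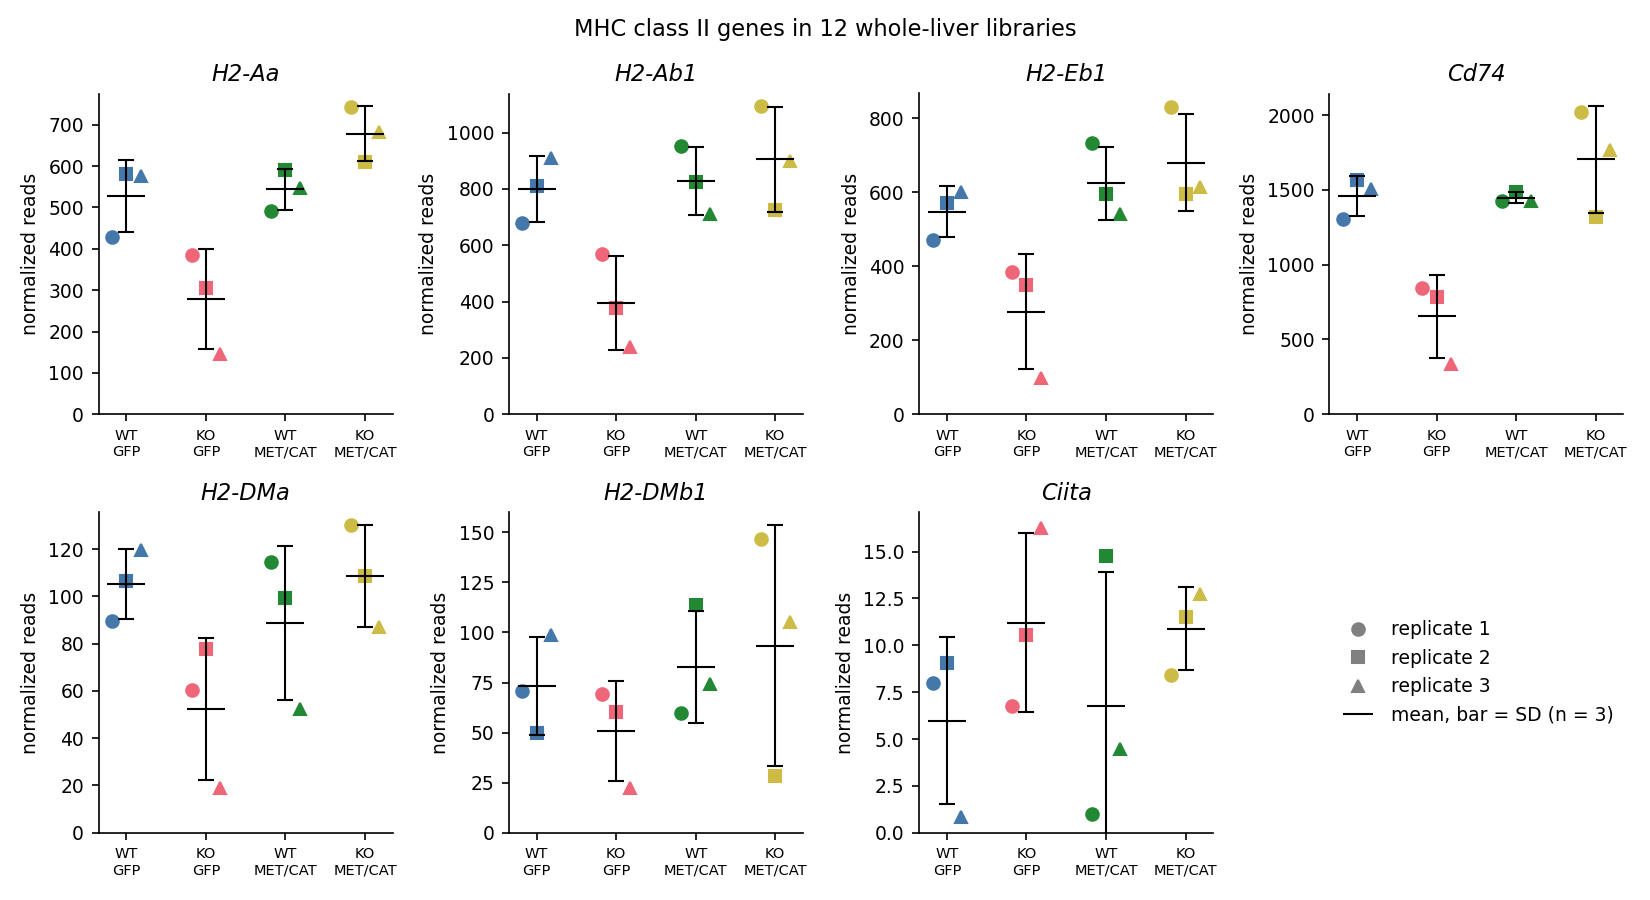
Normalized reads of each MHC class II gene in the 12 libraries (circle, square and triangle for replicates 1, 2 and 3), with the group mean and SD (n = 3) as bars; the lower SD bar of Ciita in WT MET/CAT livers is cut at 0. H2-Aa, H2-Ab1, H2-Eb1, Cd74 and H2-DMa are lower in the 3 KO GFP libraries than in the 3 WT GFP libraries, and KO GFP replicate 3 is the lowest library of each.

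In KO livers, the comparison of MET/CAT with GFP gave the only members that passed the test. Cd74, H2-Aa and H2-Ab1 rose with the oncogenes by 2.76, 2.61 and 2.40 times, from the low KO GFP level to a level close to or above that of the WT groups. This comparison uses the same KO GFP libraries as the one above, so the differences are not separate observations. Cd74 had 2022, 1320.3 and 1767 normalized reads in the KO MET/CAT libraries, all above the highest KO GFP library (842). Its log2 difference was 1.47 (SE 0.29, limma adjusted p = 0.0296).

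H2-Aa, with 743, 609 and 684 normalized reads, likewise lay above all KO GFP libraries (1.39, SE 0.29, adjusted p = 0.0386). H2-Ab1 had 1096, 724 and 898 (1.26, SE 0.28, adjusted p = 0.0449). Both chains of the I-A molecule were thus called. H2-Eb1 had 831, 595 and 614, but its KO GFP libraries were more spread than those of the other chains and it did not pass (1.50, SE 0.39, adjusted p = 0.0783; 0.87 without KO GFP replicate 3).

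H2-DMa, at 130.1, 109 and 87.0 normalized reads with the oncogenes, lay above all KO GFP libraries and did not pass (1.24, SE 0.46, adjusted p = 0.163; 0.64 without KO GFP replicate 3). H2-DMb1 had 147, 28.2 and 105, with replicate 2 inside the KO GFP range (0.72, SE 0.57, adjusted p = 0.491; 0.23 without KO GFP replicate 3). Ciita had 7, 11 and 12 reads, which overlap the KO GFP counts (0.02, SE 0.85, 95% interval −1.80 to 1.84, adjusted p = 0.993; 0.31 without KO GFP replicate 3). Counts this low do not resolve a change of the size seen in the chains.

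The 3 called members of 7 compare with 1.25% of all genes called, or 0.858% called higher, and the 5 members higher without overlap with 14.4%. The median difference was 1.26, against 0.05 over all genes. At an unadjusted p under 0.05 there were 5 members, against 20.3%. edgeR called 2, Cd74 and H2-Aa (adjusted p = 0.0542 for H2-Ab1), against 1.46% of genes, and DESeq2 called 4, with H2-Eb1 added (adjusted p = 0.0196), against 7.11%. The calls were not stable: 0 members passed when only the 6 KO libraries were fitted (adjusted p 0.104 for Cd74, 0.111 for H2-Aa and 0.121 for H2-Ab1), 0 without KO MET/CAT replicate 1, 2 or 3, and 1, Cd74, without KO GFP replicate 2 or 3. Without KO GFP replicate 3 the difference of Cd74 was 1.05 (adjusted p = 0.0301), that of H2-Aa 0.98 (adjusted p = 0.0639) and that of H2-Ab1 0.94 (adjusted p = 0.117), and the median of the members was 0.87.

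With the oncogenes present, no class II difference between KO and WT livers passed the test. H2-Aa had 492, 592 and 548 normalized reads in WT MET/CAT livers, all below the KO MET/CAT libraries, but the difference did not pass (0.32, SE 0.29, 95% interval −0.31 to 0.94, adjusted p = 0.78). H2-Ab1 had 953, 824 and 710.5 in WT MET/CAT livers and overlapped (0.12, interval −0.48 to 0.72, adjusted p = 0.924). Cd74 was even between those libraries, with 1425, 1489 and 1425 (0.21, interval −0.41 to 0.83, adjusted p = 0.857). None of the 7 members was called by limma, edgeR or DESeq2, against 0.00721% of genes by limma and by edgeR and 0.272% by DESeq2, and 0 had an unadjusted p under 0.05, against 7.76%.

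The other members did not pass either, with wide intervals for H2-DMb1 and Ciita that do not show similar values. H2-Eb1 had 734, 597 and 543 normalized reads in WT MET/CAT livers (0.12, adjusted p = 0.949), H2-DMa 115, 99.1 and 52.3 (0.35, adjusted p = 0.853) and H2-DMb1 59.8, 114 and 74.5 (−0.07, adjusted p = 0.977). Ciita had 1, 14 and 4 reads there (1.08, SE 0.85, adjusted p = 0.757). H2-Aa alone was higher without overlap, against 6.82% of genes.

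In WT livers, MET/CAT and GFP groups overlapped for all 7 members, against 10.3% of genes lower and 10.5% higher without overlap. The differences were −0.01 for Cd74 (95% interval −0.63 to 0.61, adjusted p = 0.993), 0.05 for H2-Aa (−0.57 to 0.68, adjusted p = 0.948) and 0.05 for H2-Ab1 (−0.55 to 0.65, adjusted p = 0.948). Those of H2-Eb1, H2-DMb1, Ciita and H2-DMa were 0.18, 0.18, 0.01 and −0.31. No member was called by limma, against 0.339% of genes, nor by edgeR (0.526%) or DESeq2 (4.09%), and 0 had an unadjusted p under 0.05, against 14.8%.

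**Figure D4:**
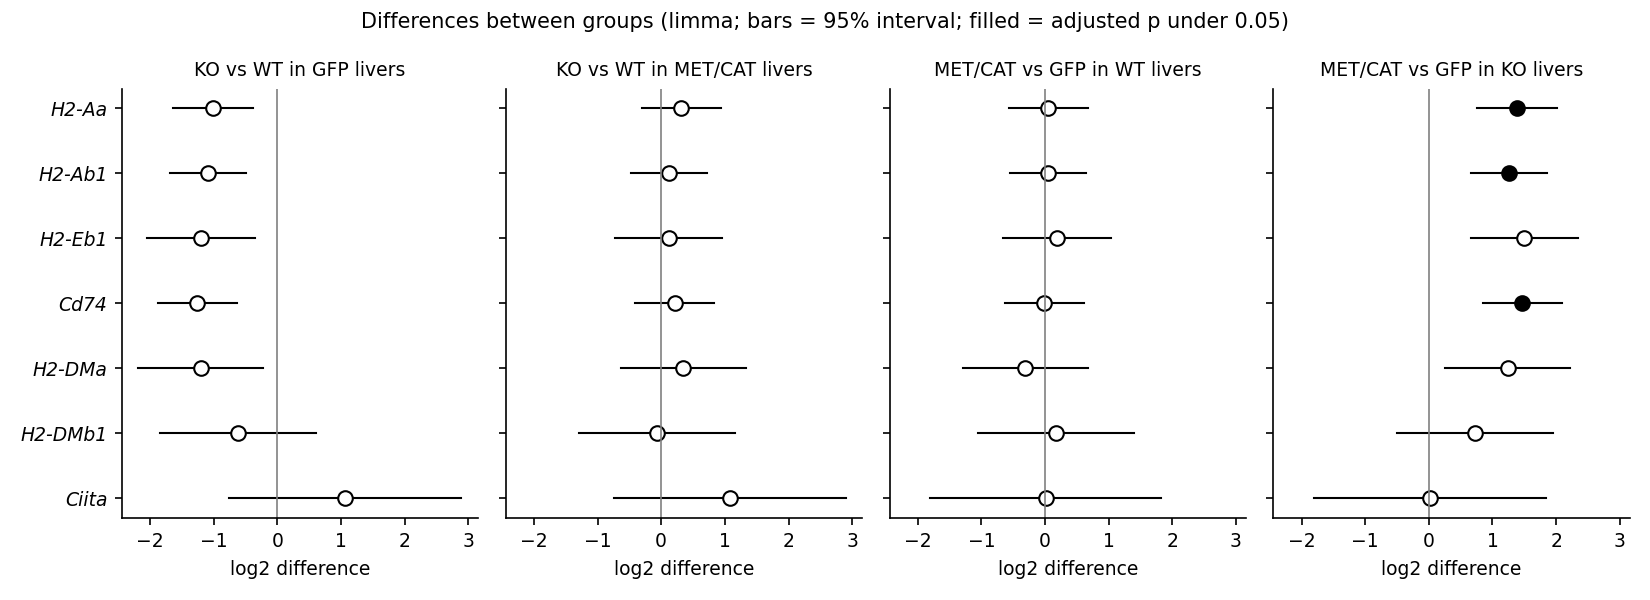
Log2 difference of each MHC class II gene in the 4 comparisons between groups (limma on log2(value + 1)), with 95% intervals; filled points have an adjusted p under 0.05. The filled points are Cd74, H2-Aa and H2-Ab1 in the comparison of MET/CAT with GFP in KO livers (1.47, 1.39 and 1.26).

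Whether the genotype effect differed between plasmids was tested directly by the interaction. No gene of the 13871 passed by limma (0.00%), so no member did. The values of 5 members had an unadjusted p under 0.05, against 15.5% of genes: Cd74 (1.48, SE 0.41, adjusted p = 0.265), H2-Aa (1.33, SE 0.41, adjusted p = 0.265), H2-Ab1 (1.21, adjusted p = 0.265), H2-Eb1 (1.32, adjusted p = 0.294) and H2-DMa (1.55, adjusted p = 0.289). Leaving out WT GFP replicate 2 or 3, WT MET/CAT replicate 3 or KO MET/CAT replicate 1 brought the 5 to 3. The median of the members in the interaction was 1.32, against 0.89 without KO GFP replicate 3 and 0.82 with the length trend removed. edgeR (0.00% of genes) and DESeq2 (1.27%) also called 0 members, DESeq2 with an adjusted p of 0.067 for Cd74. Averaged over plasmids, KO against WT gave −0.52 for Cd74 (adjusted p = 0.568) and no called member, against 0.0144% of genes. Averaged over genotypes, MET/CAT against GFP gave 0.73 for Cd74 (adjusted p = 0.0653), 0.72 for H2-Aa (adjusted p = 0.0716) and 0.66 for H2-Ab1 (adjusted p = 0.0842), with 0 of 7 called, against 3.80% of genes. DESeq2 called these 3 genes, against 8.22%.

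Across the 4 groups, the mean of each member except Ciita was lowest in KO GFP and highest in KO MET/CAT livers, with the WT groups between them. For H2-Aa the means were 279 ± 121 in KO GFP, 528 ± 86.6 in WT GFP, 544 ± 49.7 in WT MET/CAT and 678 ± 67.2 normalized reads in KO MET/CAT livers. For Cd74 they were 654 ± 276, 1459 ± 134, 1447 ± 36.7 and 1703 ± 355 in the same order of groups. For both genes the gap between KO GFP and the next group exceeded the SD of either, and the WT groups did not differ from each other beyond theirs.

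The transcription factors and signals upstream of class II did not pass the test in either comparison that uses the KO GFP libraries. Of 11 genes for the factors on the X and Y boxes and the coactivators, 0 were called in KO against WT GFP livers and 0 in KO MET/CAT against KO GFP livers, with medians of 0.15 and −0.28 (all genes tested: −0.07 and 0.05). At an unadjusted p under 0.05 there were 2 and 2, against 15.5% and 20.3% of all genes, and edgeR and DESeq2 called 0 in both. Rfxank, a subunit of the X-box complex, had a middle value of 109 normalized reads in WT GFP, 62.5 in KO GFP, 136 in WT MET/CAT and 144 in KO MET/CAT livers. Its differences were −0.88 (adjusted p = 0.29) for KO against WT in GFP livers and 1.05 (adjusted p = 0.133) for MET/CAT against GFP in KO livers. For the acetyltransferase gene Kat2b the same 2 comparisons gave 0.65 (adjusted p = 0.272) and −0.37 (adjusted p = 0.275).

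Interferon gamma is the classical inducer of Ciita. Its gene Ifng had 1 read in the 12 libraries together. Of the 8 tested genes of its signalling path, limma called 0 in either comparison (1 and 1 at an unadjusted p under 0.05, against 15.5% and 20.3% of all genes), edgeR 0, and DESeq2 0 and 1 (1.03% and 7.11% of genes). Irf1, a transcription factor of this path, had a difference of 2.58 between the KO groups (adjusted p = 0.119), with a single KO MET/CAT library at 7684 normalized reads against 462 and 547 in the other two.

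Genes that interferon gamma induces did not follow the class II members in each comparison. Of 9 such genes, 7 had lower values in KO than in WT GFP livers (median −0.29, 0 called by limma, edgeR or DESeq2, 0 at an unadjusted p under 0.05), the direction of the members. In KO MET/CAT against KO GFP livers 4 had higher and 5 lower values (median −0.14, 0 called by limma or edgeR, 2 by DESeq2 against 7.11% of genes), where all 7 members had higher values. All 9 had lower values in KO than in WT MET/CAT livers (median −0.96, against −0.002 over all genes), where 6 of the 7 members had higher values. Limma, edgeR and DESeq2 called 0 of the 9, and 6 had an unadjusted p under 0.05, against 7.76%. The libraries overlapped. Relative to its mean over all libraries, the mean log2 level of the list was −0.06, 1.98 and 0.97 in WT MET/CAT livers. In KO MET/CAT livers it was 1.20, −0.82 and −0.43. All 9 had higher values in WT MET/CAT than in WT GFP livers (median 0.68, 0 called by limma, 1 by edgeR and 1 by DESeq2, against 0.526% and 4.09% of genes), where no member was called. Gbp2, an interferon-induced GTPase, was the only one that limma called, in MET/CAT against GFP averaged over genotypes (2.18, SE 0.35, adjusted p = 0.00469). Its normalized reads were 74.8 to 229.5 in WT GFP livers, 55.7 to 89.5 in KO GFP, 362 to 1415 in WT MET/CAT and 184 to 419 in KO MET/CAT livers.

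Most genes of the peptide loading compartment had values in the same direction as the chains, without passing. Of 10, 8 had lower values in KO than in WT GFP livers (median −0.45, or −0.31 without KO GFP replicate 3; 0 called by limma, edgeR or DESeq2) and 8 had higher values in KO MET/CAT than in KO GFP livers (median 0.50, or 0.26 without that library; 0 called by these tools). At an unadjusted p under 0.05 there were 6 and 5 in either direction, against 15.5% and 20.3% of all genes. One of the 6 went the other way: Sppl2a, a protease that cleaves the remnant of the invariant chain, lay at 1576 to 1670 normalized reads with Sirt2 present and at 2046 to 3268 with it deleted, without overlap (0.67, SE 0.21, adjusted p = 0.284). The endosomal protease gene Lgmn had −0.75 (adjusted p = 0.283) and 0.69 (adjusted p = 0.135). For Ifi30, whose product reduces disulphide bonds of antigens, the first comparison gave −0.83 (adjusted p = 0.287). All 5 tested costimulation genes had lower values in KO than in WT GFP livers (median −0.78, or −0.89 without KO GFP replicate 3), with 0 called. All 5 had higher values in KO MET/CAT than in KO GFP livers (median 0.815, or 0.80). There limma, edgeR and DESeq2 called 1 each, against 1.25%, 1.46% and 7.11% of genes. The gene that limma called was Cd40, the receptor through which T cells activate presenting cells. From lowest to highest, its KO GFP libraries had 3.84, 4.52 and 8.14 normalized reads and its KO MET/CAT libraries 27.2, 65.8 and 85.5 (3.13, SE 0.57, adjusted p = 0.0209). In WT livers Cd40 had 7.98 to 11.3 with GFP and 39.9 to 156 with MET/CAT (2.81, SE 0.57, adjusted p = 0.0519). Limma called neither Cd40 nor a class II member there. Of the 5 costimulation genes, edgeR called 1 and DESeq2 2 in that comparison, against 0.526% and 4.09% of genes.

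Markers of several cell types had differences in the same directions as the members, among them cells that carry class II. All 13 Kupffer cell and macrophage markers had lower values in KO than in WT GFP livers (median −1.41, 11 at an unadjusted p under 0.05 against 15.5% of genes, called 0 by limma and edgeR and 3 by DESeq2 against 1.03%) and higher values in KO MET/CAT than in KO GFP livers (median 0.90, called 1 by limma and edgeR and 2 by DESeq2, against 1.25%, 1.46% and 7.11% of genes). These medians were −0.83 and 0.61 without KO GFP replicate 3. Their summed level was 8994 to 12052 normalized reads in WT GFP, 1784 to 5681 in KO GFP, 6972 to 10036 in WT MET/CAT and 7778 to 10801 in KO MET/CAT livers, and none of the 13 was without reads in any group. The called marker was the scavenger receptor Marco (3.51, adjusted p = 0.0263). Of 6 pan-leukocyte markers, 5 had lower values in KO than in WT GFP livers (median −0.86, or −0.58 without KO GFP replicate 3). Limma and edgeR called 0 of the 6 there, and DESeq2 2, against 1.03%. All 6 had higher values in KO MET/CAT than in KO GFP livers (median 0.87, or 0.70). There limma and edgeR called 1 and DESeq2 2, against 1.25%, 1.46% and 7.11% of genes. The marker limma called was Laptm5, a lysosomal protein of blood cells. It had 164 to 246 normalized reads in KO GFP and 477 to 756 in KO MET/CAT livers (1.49, adjusted p = 0.00764). Their part in the class II differences was not tested.

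The markers of dendritic cells and B cells gave a less even pattern. Of 10 tested dendritic cell markers, 9 had lower values in KO than in WT GFP livers (median −0.76) and 10 higher values in KO MET/CAT than in KO GFP livers (median 0.92). Limma and edgeR called 0 of them, and DESeq2 0 and 1, against 1.03% and 7.11% of genes. At an unadjusted p under 0.05 there were 4 and 3, against 15.5% and 20.3% of genes. Their summed level was 5019 to 7173 in WT GFP, 2247 to 4644 in KO GFP, 4774 to 7404 in WT MET/CAT and 6070 to 6908 normalized reads in KO MET/CAT livers. Cst3, a protease inhibitor that other cells also make, was 85.3% to 95.7% of these sums, and the other 11 genes listed together had 296 to 327, 189 to 270.3, 386 to 798 and 324 to 509 in the same order of groups. Of 8 B cell markers, 8 had lower values in the first comparison (median −1.06) and 5 higher values in the second (median 0.18), with 0 called by limma, edgeR or DESeq2 (1 and 1 at an unadjusted p under 0.05, against 15.5% and 20.3% of genes). Leaving out KO GFP replicate 3 gave medians of −0.61 and 0.57 for dendritic cell and −0.59 and −0.17 for B cell markers, the last with its sign turned. The summed level of the B cell list was 278 to 476 in WT GFP, 117 to 315 in KO GFP, 158 to 327 in WT MET/CAT and 185 to 367 in KO MET/CAT livers. No gene of either list was without reads in any group, and the part of these cells in the class II differences was not tested.

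Markers of some cells other than macrophages, dendritic cells and B cells differed in value in these comparisons too. All 6 tested T cell markers had lower values in KO than in WT GFP livers (median −1.40, or −0.97 without KO GFP replicate 3), and 4 had higher values in KO MET/CAT than in KO GFP livers (median 0.40, or 0.11). Summed, they reached 126 to 160.2 normalized reads in WT GFP livers, 24.4 to 85.8 in KO GFP, 44.9 to 139 in WT MET/CAT and 82.8 to 113 in KO MET/CAT livers. Of 7 markers of sinusoidal endothelium, 6 had lower values in the first comparison (median −0.32, or −0.23) and 7 higher values in the second (median 0.33, or 0.25), and their sum was 2664 to 3955, 2013 to 3258, 2414 to 3938 and 3048 to 4434 in the same order of groups. All 5 cholangiocyte markers, of the bile duct lining, had lower values in the first (median −0.33, which was 0.11 without KO GFP replicate 3) and higher values in the second (median 1.20, or 0.94), with sums of 354 to 432, 186 to 441, 395 to 640 and 586 to 1248. Of 6 stellate cell markers, 4 had lower values in the first (median −0.26, or −0.22) and 3 higher values in the second (median 0.01, or 0.22). Of 6 hepatocyte markers, 3 had lower values in the first (median 0.01, or 0.03) and 3 higher values in the second (median 0.06, or −0.03).

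Of these lists, limma called 0 genes in both comparisons. At an unadjusted p under 0.05 there were 1 and 2 T cell, 1 and 3 endothelial and 0 and 3 cholangiocyte markers, against 15.5% and 20.3% of genes. There were 2 and 1 stellate cell and 0 and 0 hepatocyte markers. In the second comparison edgeR called 1 cholangiocyte marker, against 1.46% of genes. DESeq2 called 2 cholangiocyte markers and 1 stellate cell marker there, against 7.11%. Both tools called 0 other markers of these lists in the second comparison. In the first they called 0, against 0.00721% of genes by edgeR and 1.03% by DESeq2. Sox9, a transcription factor of bile duct cells, was called in MET/CAT against GFP averaged over genotypes (2.11, SE 0.43, adjusted p = 0.0153), with 29.8 to 59.6 normalized reads in KO GFP and 104 to 639 in KO MET/CAT livers. No gene of these lists was without reads in any group, and their part in the class II differences was not tested.

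Library by library, the Kupffer cell markers had the highest coefficient with Cd74 of the 9 marker lists, of which 6 passed. Over the 12 libraries, log2 Cd74 and the mean log2 level of the list had Pearson's r = 0.961 (permutation p = 0.00011, Benjamini-Hochberg adjusted over the 9 lists 0.000675) and Spearman's rho = 0.888 (permutation p = 0.00018, adjusted 0.00162). Without the 2 libraries farthest from the median of Cd74, the same 2 for every list, r was 0.801. Without KO GFP replicate 3 it was 0.868 (adjusted permutation p = 0.00819), and with group means removed 0.946. With group means removed, r was 0.633 for the pan-leukocyte, 0.564 for the dendritic cell and 0.726 for the cholangiocyte list. The permutations moved libraries between groups, so differences between groups enter these p-values. The pan-leukocyte list had r = 0.879 (permutation p = 0.00015, adjusted 0.000675) and rho = 0.804 (permutation p = 0.00275, adjusted 0.0124), and r = 0.724 without the 2 farthest libraries. For dendritic cell markers r was 0.850 (permutation p = 0.0037, adjusted 0.00832) and rho 0.455 (permutation p = 0.14, adjusted 0.206), but r was 0.239 without the 2 farthest libraries and so rests on them. Cholangiocyte markers had r = 0.781 (permutation p = 0.00144, adjusted 0.00432) and rho = 0.685 (permutation p = 0.0166, adjusted 0.0498), with r = 0.656 without the 2 farthest libraries and 0.631 without KO GFP replicate 3 (adjusted permutation p = 0.0851).

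Over the 12 libraries, the other lists had lower values of r. T cell markers had r = 0.698 (permutation p = 0.0178, adjusted 0.032) and rho = 0.517 (permutation p = 0.0894, adjusted 0.161). Sinusoidal endothelial markers had r = 0.625 (permutation p = 0.0215, adjusted 0.0322) and rho = 0.594 (permutation p = 0.0461, adjusted 0.104). Without the 2 farthest libraries these r were 0.046 and 0.113, so both rest on them. B cell markers had r = 0.390 (permutation p = 0.213, adjusted 0.239) and rho = 0.399 (permutation p = 0.2, adjusted 0.225). Hepatocyte markers had r = 0.451 (permutation p = 0.142, adjusted 0.182) and rho = 0.287 (permutation p = 0.366, adjusted 0.366). Stellate cell markers had r = 0.219 (permutation p = 0.449, adjusted 0.449) and rho = 0.434 (permutation p = 0.16, adjusted 0.206). The low r of the stellate cell list rests on KO GFP replicate 3 and was 0.703 without it (adjusted permutation p = 0.0514). With group means removed, r was 0.693 for T cell, 0.395 for endothelial, 0.431 for B cell, 0.492 for hepatocyte and −0.413 for stellate cell markers. Only 2 lists passed without KO GFP replicate 3, the Kupffer cell and the pan-leukocyte list.

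Set against the marker lists, the order of the groups depended on the list. The log2 level of Cd74 minus the mean log2 level of the 13 markers was 1.84 ± 0.16 in WT GFP, 1.92 ± 0.12 in KO GFP, 2.06 ± 0.12 in WT MET/CAT and 2.19 ± 0.21 in KO MET/CAT livers (SD, n = 3). For H2-Aa the same difference was 0.36 ± 0.12, 0.69 ± 0.22, 0.65 ± 0.20 and 0.88 ± 0.22. The lowest mean of both genes relative to this list was thus in WT GFP livers. Relative to the pan-leukocyte markers, Cd74 was at 2.74 ± 0.16, 2.29 ± 0.46, 2.65 ± 0.40 and 2.90 ± 0.14 in the same order of groups, with KO GFP lowest. That mean rests on KO GFP replicate 3 (1.77) and was 2.55 without it, still the lowest of the 4. Relative to dendritic cell markers Cd74 was at 5.32 ± 0.10, 5.00 ± 0.29, 5.24 ± 0.31 and 5.60 ± 0.56, and relative to B cell markers at 5.62 ± 0.43, 5.35 ± 0.65, 6.44 ± 0.50 and 6.63 ± 0.84, again with KO GFP lowest. Without KO GFP replicate 3 its mean was 5.14 and 5.51, still lowest, by less than the SD of WT MET/CAT for the first list and of WT GFP for the second. Relative to pan-leukocyte, dendritic cell and B cell markers, H2-Aa was lowest in KO GFP livers only with that library. Without it the KO GFP means of H2-Aa were 1.31, 3.90 and 4.27, above WT GFP (1.27, 3.84 and 4.15). Those of H2-Ab1 were 1.75, 4.335 and 4.71, still below WT GFP (1.87, 4.44 and 4.75).

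**Figure D5:**
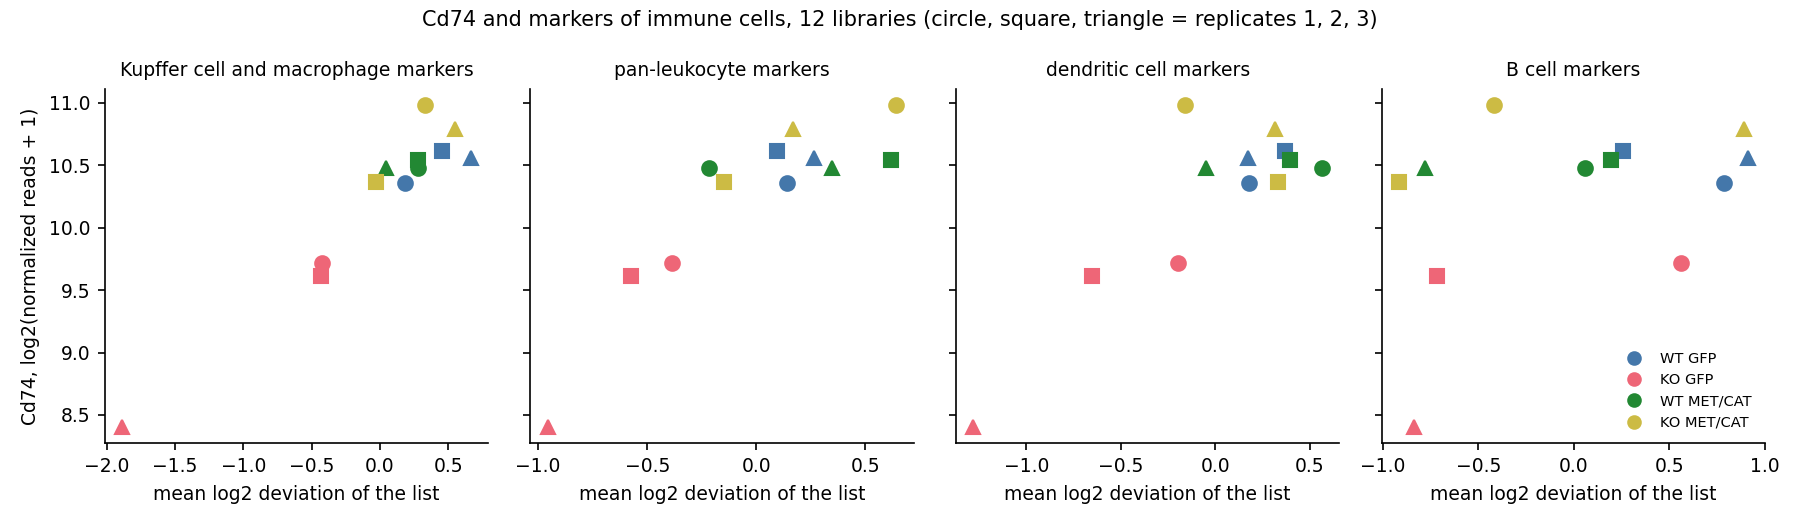
Log2(normalized reads + 1) of Cd74 (vertical axis) against the mean log2 deviation of 4 marker lists (horizontal axes) in the 12 libraries, coloured by group, with circle, square and triangle for replicates 1, 2 and 3. KO GFP replicate 3 is at the lower left for the Kupffer cell list (r = 0.961), and the B cell list shows the loosest relation (r = 0.390).

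Among themselves, the abundant members varied together. Of 21 pairs, 14 had an adjusted permutation p under 0.05 over the 12 libraries. Of these, 6 were left without KO GFP replicate 3, namely all 6 pairs among H2-Aa, H2-Ab1, H2-Eb1 and Cd74 (r 0.867 to 0.943). H2-Aa and Cd74 had r = 0.979 (permutation p = 1e-05, the smallest these permutations can give; adjusted 0.000105) and rho = 0.874 (permutation p = 0.00031, adjusted 0.00325), and r = 0.882 without the 2 farthest libraries. The I-A partners H2-Aa and H2-Ab1 had r = 0.952 (permutation p = 6e-05, adjusted 0.00021) and rho = 0.762 (permutation p = 0.00494, adjusted 0.013), and r = 0.761 without the 2 farthest libraries. In both pairs these were the 2 farthest from the median of H2-Aa. Ciita had negative coefficients with all 6 others (r −0.430 to −0.232), none of which passed. These signs were not stable. With H2-Aa, rho was 0.105, and r was 0.049 without KO GFP replicate 3. Without the 2 libraries farthest from the median of the other gene, r was positive with H2-Aa (0.259), Cd74 (0.080) and H2-DMb1 (0.174).

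The genes whose pattern was most like that of the members were ranked by Pearson's r with the mean standardized log2 level of the 7 members, over 12 libraries and 12566 genes. The first was Cdc42ep2, an effector of the GTPase Cdc42, with r = 0.971 (0.909 without KO GFP replicate 3). It was followed by Fxyd5 (0.958), Tmsb4x (0.956), Crlf2 (0.944), Rac2 (0.943), Bgn (0.942), Hcls1 (0.942), Cxcl16 (0.938), Fcer1g (0.930) and Spi1 (0.929). Rac2, Hcls1, Fcer1g and Spi1 are known from blood cells, and Bgn is a matrix proteoglycan. Without KO GFP replicate 3 the coefficients of the 10 lay between 0.739 and 0.909.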

How the data were processed

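RNA sequencing of whole liver was analysed in 12 libraries, 3 per group. The submitters' processing notes name GRCm38, HTSeq 0.11.2 and HISAT2 2.0.4. The library kit, strand setting and normalization step are not given in these sources. The authors deposited a normalized signal, in which each library's gene counts were divided by a single factor. Dividing by the value of 1 read gave whole reads for 100% of the values, within 0.000371 reads. Of 47263 genes, 23020 had no read.

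limma 3.58.1 (R 4.3.3) was fitted with a trend on log2(value + 1) of the genes with at least 10 in at least 3 libraries, with 4 group means over 12 libraries and 7 contrasts. Calls were made at 0.05 after Benjamini-Hochberg adjustment over all genes. Fold changes on this scale understate those of low genes. edgeR 4.0.16 and DESeq2 1.42.0 used the recovered reads. Other alternatives were pseudocounts of 0.5 and 5, filters at 1 and 50, equal library totals, quantile normalization, a replicate block, the 6 libraries compared, each library left out, and, added after the data were seen, the length trend removed and all alternatives for the correlations. Correlations used 100000 permutations, two-sided. Positions and transcript lengths are from GENCODE M21. Scripts were tested on simulated data.

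The members, lists and tests were chosen with earlier results of these data known. All members are named. Of each list, called genes and otherwise up to 3 with the smallest p in a comparison described are named, as is Sirt2, and the 10 genes most correlated with the members, without predicted genes, pseudogenes and receptor segments. A gene that meets this rule is not reported here. Python 3.11.15 with scipy 1.17.1 and matplotlib 3.10.9 was used for the rest.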

Additional observations from a re-analysis of the deposited data

Results flagged for a closer look

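The genotype difference of H2-Aa pointed in opposite directions under the plasmids: every KO library was below every WT library with GFP, and every KO library was above every WT library with MET/CAT. With MET/CAT the gap was narrow, from 592 in the highest WT to 609 normalized reads in the lowest KO library. The difference there was 0.32 (limma adjusted p = 0.78). With GFP it was −1.02 (limma adjusted p = 0.272), or −0.61 without KO GFP replicate 3. The difference between both differences was 1.33 on the log2 scale (SE 0.41). In limma's test of the interaction it had an adjusted p of 0.265 over all genes and did not pass, and 0.937% of the genes tested had this pattern of values. With each library left out in turn, the value was 0.93 to 1.62.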

How the results depend on the processing

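In MET/CAT against GFP in KO livers, where 3 members were called, equal library totals gave 1, the fit of the 6 libraries compared gave 0, and leaving out a library gave 0 to 3. In KO against WT GFP livers, where 0 were called, DESeq2 gave 1. In MET/CAT against GFP averaged over genotypes, where 0 were called, DESeq2 gave 3, removal of the length trend 2 and leaving out a library 0 to 3. In the remaining 4 comparisons limma, edgeR and DESeq2 called 0 members. With a library left out, the count of correlated member pairs was 6 to 15 and that of marker lists 2 to 6.

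Signs turned only for differences that were not called. With equal library totals, the MET/CAT to GFP difference in WT livers was −0.055 for H2-Aa, −0.058 for H2-Ab1 and −0.041 for Ciita, and those of Ciita in KO livers, averaged and in the interaction were −0.18, −0.11 and −0.14. Quantile normalization gave Ciita −0.06 in KO livers and −0.24 in the interaction, edgeR −0.11 and −0.32, DESeq2 −0.10 and −0.30, and a pseudocount of 5 gave −0.017 in the interaction. Both count models gave H2-DMb1 0.17 in KO against WT MET/CAT livers. With the length trend removed, Cd74 was at 0.15 and Ciita at −0.11 in MET/CAT against GFP in WT livers, and H2-Ab1 at −0.023 in KO against WT MET/CAT livers. The cause was not tested.

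With a library left out, differences in WT livers (MET/CAT against GFP) ranged from −0.09 to 0.13 for H2-Aa, −0.061 to 0.16 for H2-Ab1, −0.085 to 0.044 for Cd74, −0.53 to 0.028 for H2-DMa, −0.076 to 0.42 for H2-DMb1 and −0.78 to 0.75 for Ciita. Those of Ciita were −0.27 to 0.31 in KO livers, −0.38 to 0.38 averaged and −0.73 to 0.80 in the interaction. In KO against WT MET/CAT livers they were −0.03 to 0.27 for H2-Ab1, −0.035 to 0.24 for H2-Eb1 and −0.54 to 0.63 for H2-DMb1, which ranged from −0.57 to 0.01 averaged over plasmids.

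Same-numbered libraries did not pair (18 pairs, median r −0.0055, 5 over 0.1). With the replicate number as a block, the count of called members was 3 in MET/CAT against GFP in KO livers and 0 in the other comparisons, and genes called in KO against WT GFP livers went from 1 to 7. Depth limits Ciita, with 17 to 38 reads per group.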
